A study of Mus musculus with 16 samples.

Results

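Immediate early response genes are the first genes that a cell transcribes after a stimulus. The set described here holds 10 of them (Fos, Fosb, Jun, Junb, Egr1, Ier2, Atf3, Nr4a1, Dusp1 and Nfkbia), listed by name, of 20056 genes tested. They were read by 11 probes on 29 spots of a microarray, and each of these probes was well above background on 16 of 16 arrays. RNA came from whole hearts of male C57BL/6 mice, 1 array per heart, with 4 arrays in each of 4 groups. All mice carried the floxed allele of Nr3c2, the gene of the mineralocorticoid receptor, which binds aldosterone and corticosteroids. The cardioMRKO mice also carried Cre driven by the αMHC promoter of cardiomyocytes, so that other cells of their hearts keep the gene. Their controls, called flox here, were MRflox littermates without Cre, so presence of Cre and loss of the receptor cannot be told apart. Hearts of each genotype were taken at an age of 1 month or 2 months.

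Immediate early genes need no new protein for their transcription. Their promoters are switched on within minutes by factors that are already present, such as SRF with its ternary complex partners, CREB and NF-κB, which MAP kinases, calcium and cytokines activate, and the transcripts are short-lived. In the heart they respond to stretch, adrenergic stimulation and ischaemia, and handling or dissection of tissue is also known to induce them. Fos, Fosb, Jun, Junb and Atf3 encode basic leucine zipper proteins of the AP-1 and ATF families, which bind DNA as dimers. Egr1 encodes a zinc finger transcription factor, Nr4a1 an orphan nuclear receptor, and Ier2 a small nuclear protein. Dusp1 encodes a phosphatase that switches MAP kinases off, and Nfkbia encodes IκBα, the inhibitor that holds NF-κB in the cytoplasm.

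The starts of 5 of these genes are printed here because the results turn on their transcripts. Fosb and Nfkbia passed the test between ages, and Fos, Atf3 and Nr4a1 differed most between single arrays. Each run is 300 bases of RefSeq sequence in build GRCm38.p6, 5′ to 3′ on the strand of the gene, from 250 bases before the start of transcription to 50 after it. The windows are chr12:85473640-85473939 on the plus strand for Fos, chr7:19309996-19310295 on the minus strand for Fosb, chr1:191183284-191183583 on the minus strand for Atf3, chr15:101266596-101266895 on the plus strand for Nr4a1 and chr12:55492598-55492897 on the minus strand for Nfkbia. The Nr4a1 and Fosb starts lie inside the annotated spans of these genes, chr15:101253902-101274795 and chr7:19302696-19310118. Of the members not printed, Jun spans chr4:95049036-95052222, Junb chr8:84976909-84978748, Ier2 chr8:84661331-84662852 and Dusp1 chr17:26505591-26508472. Capitals mark matches to the CRE core TGACG (read as CGTCA on the other strand), to the TATA box TATAAA and to the kB site.
Fos: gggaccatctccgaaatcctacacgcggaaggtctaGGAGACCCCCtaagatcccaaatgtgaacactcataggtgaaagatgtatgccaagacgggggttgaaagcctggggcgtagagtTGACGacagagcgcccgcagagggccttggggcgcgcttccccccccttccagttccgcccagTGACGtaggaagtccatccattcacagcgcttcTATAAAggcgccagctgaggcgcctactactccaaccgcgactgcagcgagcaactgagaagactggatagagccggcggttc
Fosb: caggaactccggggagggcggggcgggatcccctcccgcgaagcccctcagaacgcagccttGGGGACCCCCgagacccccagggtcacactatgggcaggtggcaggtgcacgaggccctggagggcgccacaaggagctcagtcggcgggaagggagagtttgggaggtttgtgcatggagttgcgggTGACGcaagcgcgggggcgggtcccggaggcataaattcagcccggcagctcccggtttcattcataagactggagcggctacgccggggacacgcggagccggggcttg
Atf3: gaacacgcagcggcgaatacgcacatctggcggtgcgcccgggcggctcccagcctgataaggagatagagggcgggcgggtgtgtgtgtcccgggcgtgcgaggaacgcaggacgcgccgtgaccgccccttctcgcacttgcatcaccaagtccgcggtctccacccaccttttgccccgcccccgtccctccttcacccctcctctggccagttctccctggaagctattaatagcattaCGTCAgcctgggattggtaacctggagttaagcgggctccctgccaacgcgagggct
Nr4a1: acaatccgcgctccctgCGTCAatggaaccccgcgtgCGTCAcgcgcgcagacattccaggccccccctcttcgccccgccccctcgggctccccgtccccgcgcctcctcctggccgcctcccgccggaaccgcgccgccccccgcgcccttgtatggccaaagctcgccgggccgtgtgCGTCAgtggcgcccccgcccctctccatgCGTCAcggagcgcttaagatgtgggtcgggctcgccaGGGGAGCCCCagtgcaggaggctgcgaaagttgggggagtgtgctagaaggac
Nfkbia: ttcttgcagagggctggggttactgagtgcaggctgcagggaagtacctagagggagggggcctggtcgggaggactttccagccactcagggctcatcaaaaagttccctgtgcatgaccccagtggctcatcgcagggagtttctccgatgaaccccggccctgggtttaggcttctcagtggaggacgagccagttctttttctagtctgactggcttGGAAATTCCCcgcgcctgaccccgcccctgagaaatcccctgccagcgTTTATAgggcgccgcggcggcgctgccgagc

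Windows of 8 members were searched on both strands, and those of Egr1 and Ier2 were not used here. The CRE core, the short letters within the site that CREB and ATF proteins bind, was in 6 of the 8 windows (Fos, Fosb, Junb, Atf3, Nr4a1 and Dusp1), against 20.8% of 32851 RefSeq windows of the same length. Nr4a1 held 4 copies of it, and Fos held 2. The full palindrome TGACGTCA, which contains the core on each strand, was in the window of Dusp1 alone, and in 1.79% of all windows. The kB site, bound by NF-κB, was in 4 of the 8 (Fos, Fosb, Nr4a1 and Nfkbia), against 4.51% of all windows. TATAAA was in 3 of them, before the start in Fos, from the first transcribed base in Junb and after the start on the other strand in Nfkbia, and in 13.6% of all windows. The AP-1 letters TGANTCA and the CArG box of SRF had 0 matches in the 8 windows, against 7.81% and 1.63% of all windows. Sites more than 250 bases before the start lay outside the windows and were not searched, so these genes may hold such sites elsewhere. A match describes the letters only.

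A level is the log2 signal of a gene after subtraction of the 75th percentile of its array, so a level of 0 is the signal that 75% of its probes do not exceed. Values of different genes come from different probes and are not set against each other. Differences are log2 values from 1 limma fit over 16 arrays, with the standard error (SE) of that fit, n = 4 arrays per group, and a p adjusted over all 20056 genes by the Benjamini-Hochberg method. A gene was called at an adjusted p under 0.05. The 4 arrays of a group shared a slide with no other group, so effects of slide and of group cannot be told apart. The replicate number was the position of the array on its slide in every group. In bulk tissue, fewer cells of a type and less RNA per cell cannot be told apart.

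The 75th percentile lay between 527 and 1092 intensity units, and 62.5% to 71.6% of the probes of an array were well above background. The deleted gene Nr3c2 stood between −4.77 and −4.22 in flox and −4.84 and −4.53 in cardioMRKO at 1 month, and between −3.90 and −3.44 and −4.44 and −3.90 at 2 months. Its genotype difference was −0.19 ± 0.15 (SE) at 1 month and −0.42 ± 0.15 at 2 months (limma adjusted p = 0.973 and 0.129), in tissue where other cells keep the gene. The summed linear level of 10 cardiomyocyte markers was 1602 to 2329 times the 75th percentile, and all were above background on every array. Some arrays stood apart in 7 spike-in controls, taken like the levels after subtraction of the 75th percentile. At 2 months their median deviated from their mean over all arrays by −0.82 in flox replicate 4 and −0.50 in cardioMRKO replicate 3. Low spike-in signal is meant below in this relative sense. The 75th percentile itself was lowest on the former array (527) and highest on the latter (1092). The mean level of 6 markers of airway epithelium ran from −6.16 to 2.93 over the flox arrays and from −5.88 to 2.05 over the cardioMRKO arrays at 1 month, and from 0.19 to 5.47 over the arrays at 2 months.

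Fosb, an AP-1 partner of the Jun proteins, rose between 1 and 2 months in both genotypes. In flox it stood at −4.18, −3.72, −3.97 and −4.08 in replicates 1 to 4 at 1 month and at −2.53, −2.82, −2.32 and −2.33 at 2 months. In cardioMRKO the levels were −3.41, −3.49, −3.60 and −3.59 at 1 month and −2.48, −2.84, −3.12 and −2.33 at 2 months. Every 2-month array of a genotype lay above every 1-month array of it, and the groups did not overlap. The difference between ages was 1.49 ± 0.17 (SE) in flox, a 2.80-fold higher signal (limma adjusted p = 0.000139), and 0.83 ± 0.17 in cardioMRKO, a 1.78-fold higher signal (adjusted p = 0.00663). Its signal was dim, with processed intensities of 35.8 to 140 units, and with a normexp background correction the differences were 0.95 in flox and 0.49 in cardioMRKO (adjusted p = 0.000359 and 0.0317). Without the 4 arrays in slide position 1 the cardioMRKO difference was 0.80 and missed the threshold (adjusted p = 0.0648), while the flox difference was 1.43 (adjusted p = 0.00212).

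Between genotypes, Fosb at 1 month was higher on all 4 cardioMRKO arrays than on all 4 flox arrays. The means were −3.52 ± 0.09 (SD, n = 4) and −3.99 ± 0.20, a difference of 0.46 ± 0.17 (SE) that did not pass over all genes (limma adjusted p = 0.695). It was 1 of the 10 immediate early genes whose groups did not overlap in that direction, where 3.5% of all genes did, and 0 of the 10 were lower without overlap, where 4.57% were. At 2 months the groups overlapped, and the difference was −0.19 ± 0.17 (adjusted p = 0.564). Leaving out the pair of arrays whose spike-in signal was low made it 0.0053. The change of the genotype difference from 1 to 2 months was −0.66 ± 0.24 (limma adjusted p = 0.285).

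Fos, the AP-1 subunit that pairs with Jun proteins, varied widely between arrays of the same group. At 1 month its levels were −3.60, −3.44, −2.11 and −2.71 in flox and −1.43, −0.89, −1.61 and −3.69 in cardioMRKO. At 2 months they were −2.04, −2.74, −1.93 and −1.42 in flox and −1.25, −1.94, −0.16 and −1.03 in cardioMRKO. Replicates 1 to 3 of cardioMRKO at 1 month lay above all 4 flox arrays of that age, and replicate 4 lay below them. The highest and lowest cardioMRKO arrays of that age differed 6.96-fold. The difference between genotypes was 1.06 ± 0.55 (SE) at 1 month (95% interval −0.12 to 2.24, limma adjusted p = 0.886) and 0.94 ± 0.55 at 2 months (−0.24 to 2.11, adjusted p = 0.381). Both intervals hold 0 and also differences of over 2 log2 units. Fos was printed as 10 spots on each array. Their levels had a median SD of 0.09 within an array, against an SD of 0.84 between arrays of a group. With 1 array per heart, differences between hearts and between arrays cannot be told apart. With age the difference was 0.93 ± 0.55 in flox and 0.81 ± 0.55 in cardioMRKO (adjusted p = 0.251 and 0.402). Processed intensities of Fos ran from 47.0 to 980 units, so it was dim on its lowest arrays. In alternatives other than single arrays left out, the difference with age ran from 0.41 to 1.02 in flox and from 0.34 to 1.02 in cardioMRKO. The genotype difference of Fos ran from 0.69 to 1.06 at 1 month and from 0.72 to 0.98 at 2 months in them.

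Jun and Junb, the AP-1 partners of the Fos proteins, differed less between arrays. Jun stood at 1.54, 0.99, 0.98 and 0.87 in flox and 1.24, 1.62, 1.18 and 1.21 in cardioMRKO at 1 month. The corresponding levels at 2 months were 1.57, 0.98, 1.15 and 0.92 in flox and 2.03, 1.14, 0.78 and 1.42 in cardioMRKO. Replicate 1 was the highest array of 3 groups, and replicate 2 of the fourth, cardioMRKO at 1 month. The genotypes overlapped at both ages, with differences of 0.22 ± 0.24 (SE) and 0.19 ± 0.24 (limma adjusted p = 1.00 and 0.696). Without replicate 1 of cardioMRKO at 2 months the difference at that age was −0.0405.

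Junb stood at 3.43, 3.52, 3.82 and 3.47 in flox and 3.79, 3.99, 3.84 and 3.52 in cardioMRKO at 1 month. Its levels at 2 months were 3.59, 3.18, 3.40 and 3.35 in flox and 3.83, 3.59, 3.42 and 3.61 in cardioMRKO. The spread within each group was 0.17 to 0.20 (SD, n = 4), and the genotypes overlapped at both ages. The differences were 0.22 ± 0.13 (SE) at 1 month and 0.23 ± 0.13 at 2 months (limma adjusted p = 0.922 and 0.366). These levels are of the brighter of its 2 probes. With age in flox Junb differed by −0.18 (adjusted p = 0.357), and by −0.34 with a normexp background correction (adjusted p = 0.0493). On the dimmer probe the levels were 3.27, 3.27, 3.74 and 3.51 in flox and 3.67, 3.98, 3.83 and 3.57 in cardioMRKO at 1 month. At 2 months they were 3.31, 2.89, 3.17 and 2.99 in flox and 3.57, 3.40, 3.09 and 3.45 in cardioMRKO. In both genotypes this probe fell further with age than the brighter one, and it was not tested on its own.

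Atf3, a stress-induced repressor of the ATF family, was high on single arrays. It stood at 0.28, −1.84, −1.78 and −1.86 in flox and −0.09, −0.02, −1.80 and −1.40 in cardioMRKO at 1 month. At 2 months its levels were 0.89, −0.29, −0.57 and −1.05 in flox and 0.74, −0.68, −0.68 and −0.84 in cardioMRKO. Replicate 1 was high in each group, joined by replicate 2 in cardioMRKO at 1 month. As deviations from the group mean, these 5 arrays stood at 0.73 to 1.58 and the other 11 at −0.98 to −0.04. The genotypes overlapped, with differences of 0.47 ± 0.58 (SE) at 1 month and −0.11 ± 0.58 at 2 months (limma adjusted p = 1.00 and 0.931). With age it differed by 1.05 ± 0.58 in flox and 0.46 ± 0.58 in cardioMRKO (adjusted p = 0.223 and 0.690), and the former was 1.58 without flox replicate 1 at 1 month (adjusted p = 0.0489) and 1.46 with array weights (adjusted p = 0.0471).

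Nr4a1 had the widest spread of the 10 genes. Its levels at 1 month were 5.61, 1.77, 2.28 and 1.75 in flox and 4.75, 4.91, 2.48 and 1.86 in cardioMRKO. At 2 months they were 3.28, 2.91, 2.61 and 3.42 in flox and 4.06, 2.66, 3.72 and 3.08 in cardioMRKO. At 1 month 1 flox array and 2 cardioMRKO arrays stood apart above the rest, the same 3 arrays on which Atf3 was high. The highest and lowest arrays differed 14.5-fold in flox and 8.27-fold in cardioMRKO at 1 month, and 1.75-fold and 2.63-fold at 2 months. The genotype difference was 0.65 ± 0.82 (SE) at 1 month and 0.33 ± 0.82 at 2 months (limma adjusted p = 1.00 and 0.852). Without the array of highest airway signal of each genotype at 1 month, of which the cardioMRKO one is among the 3, the 1-month difference was −0.14.

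Egr1 and Ier2 gave no call in any of the 5 comparisons. Egr1 stood at 0.59, 1.11, 1.57 and 1.19 in flox and 1.22, 1.94, 1.76 and 0.90 in cardioMRKO at 1 month, and at 1.09, 1.39, 1.37 and 1.45 and at 1.30, 1.66, 2.20 and 1.33 at 2 months. Flox at 2 months spanned the narrowest range, and the genotypes overlapped at both ages. Their differences were 0.34 ± 0.26 (SE) and 0.30 ± 0.26 (limma adjusted p = 0.973 and 0.563). Ier2 stood at 1.48, 1.80, 1.79 and 1.35 in flox and 1.86, 2.03, 1.89 and 1.39 in cardioMRKO at 1 month, and at 1.49, 1.48, 1.50 and 1.71 and at 1.38, 1.32, 1.77 and 1.49 at 2 months. On both genes, as on Fos, cardioMRKO replicate 4 was the lowest array of its group at 1 month and cardioMRKO replicate 3 the highest at 2 months. The genotype differences of Ier2 were 0.19 ± 0.15 and −0.06 ± 0.15 (limma adjusted p = 0.980 and 0.860). With age it differed by −0.30 ± 0.15 in cardioMRKO (adjusted p = 0.232), and by −0.42 with array weights (adjusted p = 0.0378).

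The feedback inhibitors Dusp1 and Nfkbia are also known as targets of corticosteroid receptors. Dusp1 stood at 2.82, 2.35, 2.79 and 2.75 in flox and 2.94, 3.77, 3.24 and 2.61 in cardioMRKO at 1 month. Its levels at 2 months were 2.93, 2.71, 2.68 and 3.39 in flox and 3.32, 3.13, 3.43 and 3.21 in cardioMRKO. Most cardioMRKO arrays lay above most flox arrays of their age, and the groups overlapped through cardioMRKO replicate 4 at 1 month and flox replicate 4 at 2 months. The differences were 0.46 ± 0.22 (SE) at 1 month and 0.35 ± 0.22 at 2 months (limma adjusted p = 0.844 and 0.415).

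Nfkbia fell between 1 and 2 months in flox. There it stood at 3.87, 3.28, 3.36 and 3.53 at 1 month and 2.76, 3.01, 3.03 and 1.98 at 2 months. The 2 ages did not overlap, and replicate 4 was the lowest array at 2 months. The difference was −0.82 ± 0.24 (SE), a 1.76-fold lower signal (limma adjusted p = 0.0240). The flox replicate 4 array at 2 months is also the array with the lowest spike-in signal. Without it the difference was −0.58 (adjusted p = 0.0599), without it and the other array of low spike-in signal −0.58 (adjusted p = 0.0391), and with array weights, which count arrays of large residuals less, −0.48 (adjusted p = 0.0279). The call was also lost without flox replicate 1 at 1 month (−0.70, adjusted p = 0.0689), without flox replicate 4 at 1 month (−0.81, adjusted p = 0.0534) and without the 4 arrays in slide position 1 (−0.72, adjusted p = 0.142). In a fit of the 8 flox arrays alone the adjusted p was 0.0574.

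In cardioMRKO, Nfkbia stood at 3.10, 3.48, 3.23 and 3.12 at 1 month and 3.14, 3.22, 2.93 and 3.87 at 2 months, where the ages overlapped. Between genotypes the difference was −0.27 ± 0.24 (SE) at 1 month and 0.60 ± 0.24 at 2 months (limma adjusted p = 0.998 and 0.190). Replicate 4 was the highest cardioMRKO array and the lowest flox array at 2 months. The change of the genotype difference from 1 to 2 months was 0.88 ± 0.34 (limma adjusted p = 0.340).

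**Figure D1:**
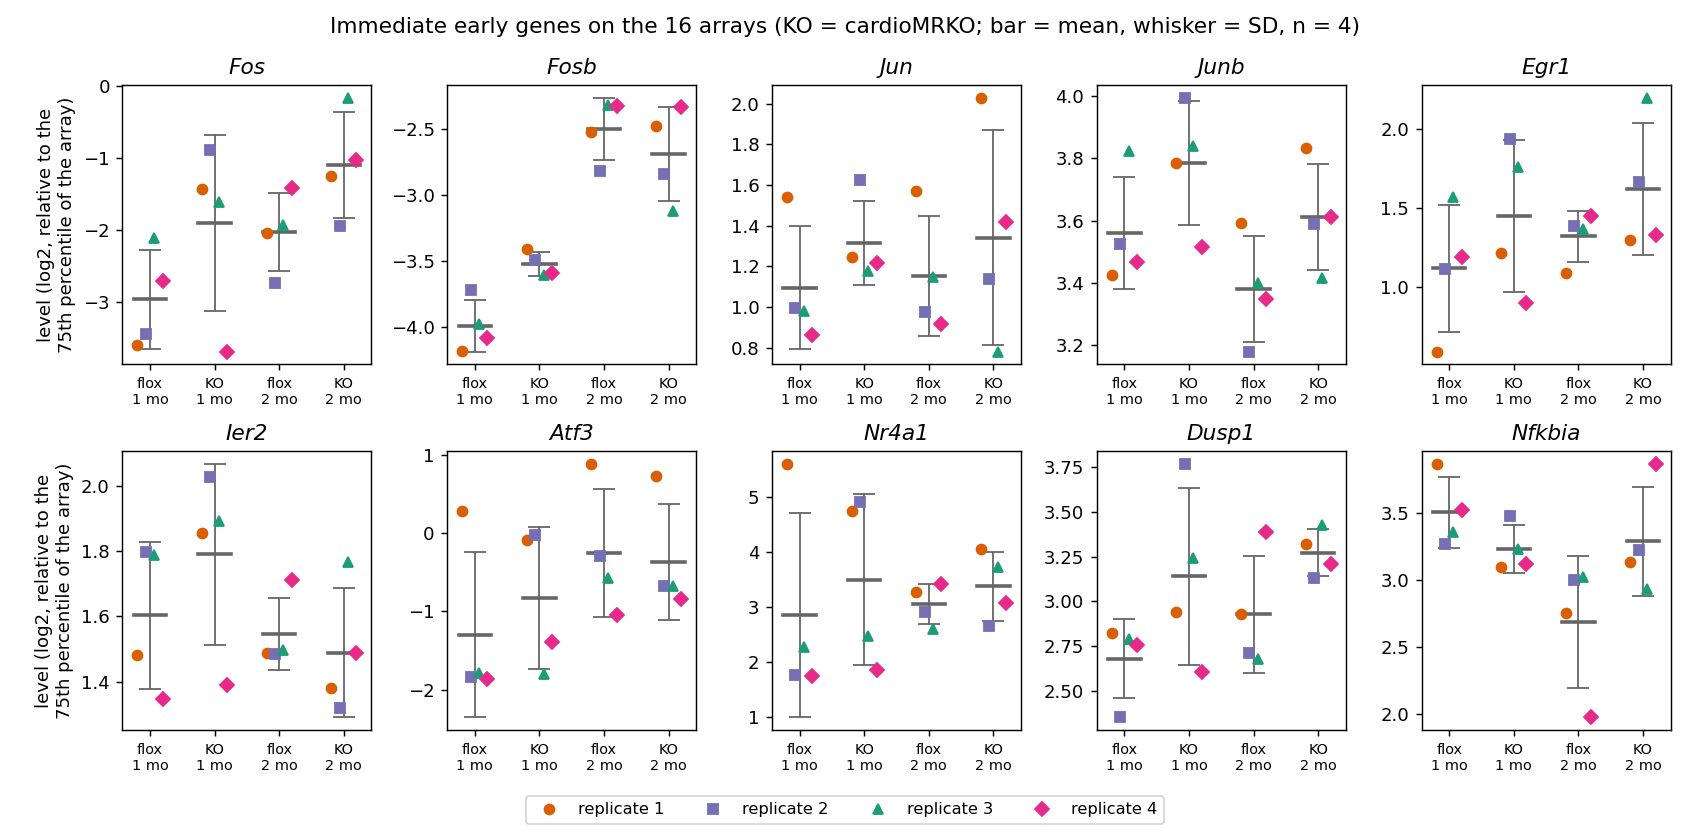
Level of each immediate early gene (vertical axes, log2 after subtraction of the 75th percentile, a separate scale per gene) on every array of the 4 groups (horizontal axis), with the group mean as a bar and the SD as a whisker (n = 4). The 2-month arrays of Fosb lie above the 1-month arrays of the same genotype, while Nr4a1, Atf3 and Fos spread widely within groups.

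Counted over the 10 genes, the comparison of genotypes gave 0 calls at 1 month and 0 at 2 months, where 0.0947% and 3.57% of all genes were called (limma, adjusted p). At an unadjusted p under 0.05 there was 1 at each age (Fosb and Nfkbia), against 5.92% and 18.9% of all genes. The genotype difference was above 0 for 9 of the 10 at 1 month, all but Nfkbia, with a median of 0.40 beside 0.00 over all genes. In the same comparison all 10 cardiomyocyte markers lay below 0, between −0.34 and −0.065 with a median of −0.24, and 0 of them were called. Of these markers 6 were lower in cardioMRKO without overlap, where 4.57% of all genes were, and their summed linear level was 2058 to 2311 in flox and 1681 to 1970 in cardioMRKO. Their part in the levels of the immediate early genes was not tested. At 2 months the genotype difference was above 0 for 7, all but Fosb, Ier2 and Atf3, with a median of 0.27 beside −0.08 over all genes. Several of these genes move together between arrays, so the count of signs is a description. No pair of groups was free of overlap at 2 months, where 2.88% of all genes were higher and 7.18% lower without overlap. For the change of the genotype difference between ages, 0 of 10 were called, against 0.758% of all genes, and 2 had an unadjusted p under 0.05 (Fosb and Nfkbia), against 10.8%.

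Between ages, 2 of the 10 genes were called in flox, where 22.7% of all genes were: Fosb rose, as 16.7% of all genes did, and Nfkbia fell, as 6% did. The other 8 did not pass, with differences between −0.18 and 1.05. The median of the 10 was 0.20, beside 0.07 over all genes. In cardioMRKO 1 of the 10 was called, where 10.2% of all genes were: Fosb rose, as 5.6% did, and 0 fell, where 4.63% did. The median there was 0.10, beside 0.02 over all genes. Fosb was the 1 gene of the 10 that was higher without overlap in either genotype, where 19.8% of all genes in flox and 9.83% in cardioMRKO were. Nfkbia was lower without overlap in flox, as 8.17% of all genes were, and 0 of the 10 were in cardioMRKO, where 10.3% were. These comparisons share groups with those of the genotypes, so they are not independent of them.

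Other cell type markers also differed with age, and their part in the result on Fosb and Nfkbia was not tested. Of 6 airway markers 5 were called higher at 2 months in flox and 0 in cardioMRKO (limma), against 16.7% and 5.6% of all genes. In cardioMRKO all 6 differences were above 0, at 2.59 to 3.85, and the change of the genotype difference was called for 0 of 6. At 1 month 16 of 24 readings of these markers in flox and 19 of 24 in cardioMRKO were above background. Sftpa1, Sftpc and Sftpd entered the tests only through 2-month groups, where they were high, so these counts are a description. The summed linear level of the 6 airway markers was 0.193 to 78.1 in flox and 0.208 to 123 in cardioMRKO at 1 month, and 102 to 484 and 29.4 to 193 at 2 months. Without the array of highest airway signal of each genotype at 1 month, Fosb differed by 1.46 in flox and 0.87 in cardioMRKO (limma adjusted p = 0.000879 and 0.0187), and Nfkbia in flox by −0.81 (adjusted p = 0.0663). The 1-month arrays left had mean airway levels of −6.16 to −5.30 in flox and −5.88 to −0.58 in cardioMRKO. At 2 months these were 2.25 to 5.47 and 0.19 to 2.94, so age and airway signal cannot be told apart in this setting. Of 6 fibroblast markers 4 fell with age in each genotype, against 6% of all genes in flox and 4.63% in cardioMRKO. Of 6 B and T cell markers 2 were called higher in flox and 3 in cardioMRKO, against 16.7% and 5.6%. Among them Cd79a entered the tests only through 2-month groups, where it was high.

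**Figure D2:**
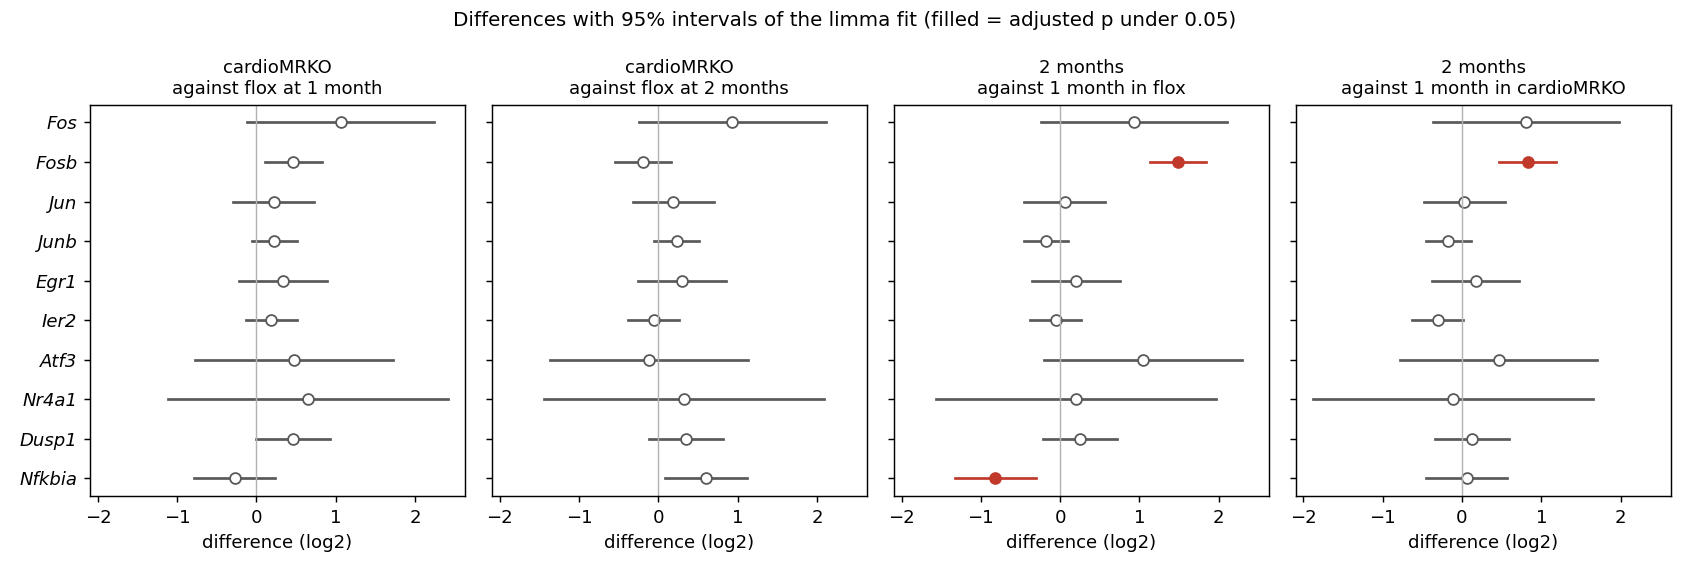
Difference of each immediate early gene in 4 comparisons (horizontal axes, log2), as the estimate with the 95% interval of the limma fit (n = 4 arrays per group), filled where the adjusted p is under 0.05. Only Fosb (1.49 in flox, 0.83 in cardioMRKO) and Nfkbia (−0.82 in flox) pass, both between ages, and the intervals of Nr4a1, Atf3 and Fos are the widest.

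The spread between arrays of a group differed from gene to gene. Pooled over the 4 groups, the SD of the median gene on the array was 0.24. Nr4a1 had an SD of 1.26, higher than 98.7% of all genes, Atf3 of 0.89 (94.7%) and Fos of 0.84 (93.8%). In the middle lay Egr1 with 0.39 (73.6%), Nfkbia with 0.36 (70.2%), Jun with 0.35 (69.9%) and Dusp1 with 0.32 (65.4%). Fosb (0.24), Ier2 (0.21) and Junb (0.18) were at or below the median gene. Group means of the 3 most variable genes are thus known less exactly than those of the others, and the intervals above reflect it.

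Fos moved with some of the other genes from array to array. After the mean of its group was subtracted from each array, it correlated over 16 arrays with Ier2 (Pearson r = 0.77, Spearman rho = 0.76), Dusp1 (r = 0.73, rho = 0.69) and Egr1 (r = 0.72, rho = 0.74). By permutation within groups, the two-sided p of r was 0.00916, 0.011 and 0.00965, and 0.0329 for each after adjustment over the 9 relations of Fos. Without the 2 arrays of most extreme Fos, replicates 4 and 2 of cardioMRKO at 1 month, r was 0.57, 0.54 and 0.57. The 3 relations rest on few arrays. None of the 9 passed after leaving out any 1 of flox replicate 3, cardioMRKO replicate 2, 3 or 4 at 1 month, flox replicate 4 or cardioMRKO replicate 3 at 2 months, and 1 passed without cardioMRKO replicate 2 at 2 months. The named arrays flox replicate 4 and cardioMRKO replicate 3 at 2 months are those of low spike-in signal, and each had the highest Fos and Ier2 of its group. Without both, r with Fos was 0.71 for Ier2, 0.71 for Dusp1 and 0.65 for Egr1 over 14 arrays, and the permutation p adjusted over the 9 relations was 0.164 for each. Junb alone then passed, with r = 0.80 (adjusted permutation p = 0.0320). Without the 4 arrays in slide position 1, Dusp1 alone passed (r = 0.88, adjusted permutation p = 0.0418). Without the 2 arrays of highest airway signal at 1 month, Ier2 alone passed (r = 0.90, adjusted permutation p = 0.00369). Over all 16 arrays, Junb had r = 0.52 with Fos (permutation p = 0.0822, adjusted 0.185), Nr4a1 0.29 (p = 0.433, adjusted 0.649), and Fosb, Jun and Nfkbia lay between −0.20 and 0.10.

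Atf3 fell into separate sets of 5 and 11 arrays, so no correlation with it is given over all arrays, although its relation with Fos was among the 9. Over the 36 pairs of the other genes, r ran from −0.51 (Jun with Egr1) to 0.77, with a median of 0.20, and 25 pairs were above 0. None passed when adjusted over all 45 pairs of the 10 genes by permutation, and 6 of the 36 had an unadjusted p under 0.05. On the 5 arrays of high Atf3, Nr4a1 stood above its group mean, by 0.22 to 2.76. At 2 months it was also above it on flox replicate 4 (0.36), where Atf3 was lowest of its group, and on cardioMRKO replicate 3 (0.34). Jun stood above its group mean by 0.31 to 0.69 on 4 of the 5 arrays of high Atf3 and at −0.07 on cardioMRKO replicate 1 at 1 month. Fos stood on both sides on these 5 arrays, from −0.64 on flox replicate 1 to 1.01 on cardioMRKO replicate 2 at 1 month.

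**Figure D3:**
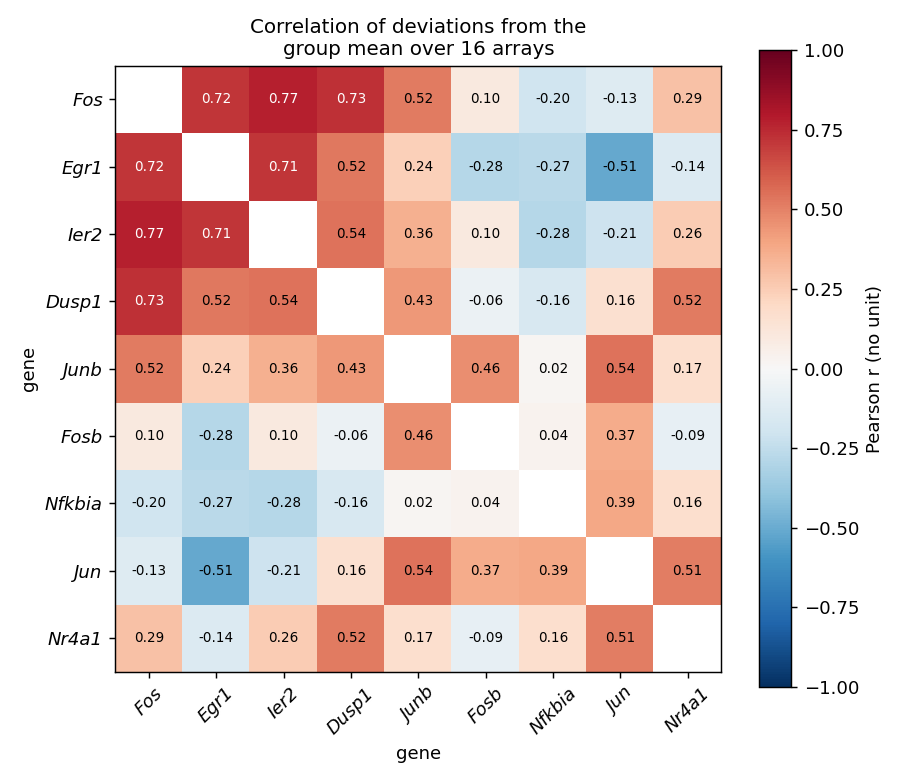
Pearson r (colour and number) between the deviations of 9 immediate early genes from their group means over 16 arrays, with Atf3 left out because its values form separate sets. Fos, Egr1, Ier2 and Dusp1 form a block of r from 0.52 to 0.77, while Jun with Egr1 is at −0.51.

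**Figure D4:**
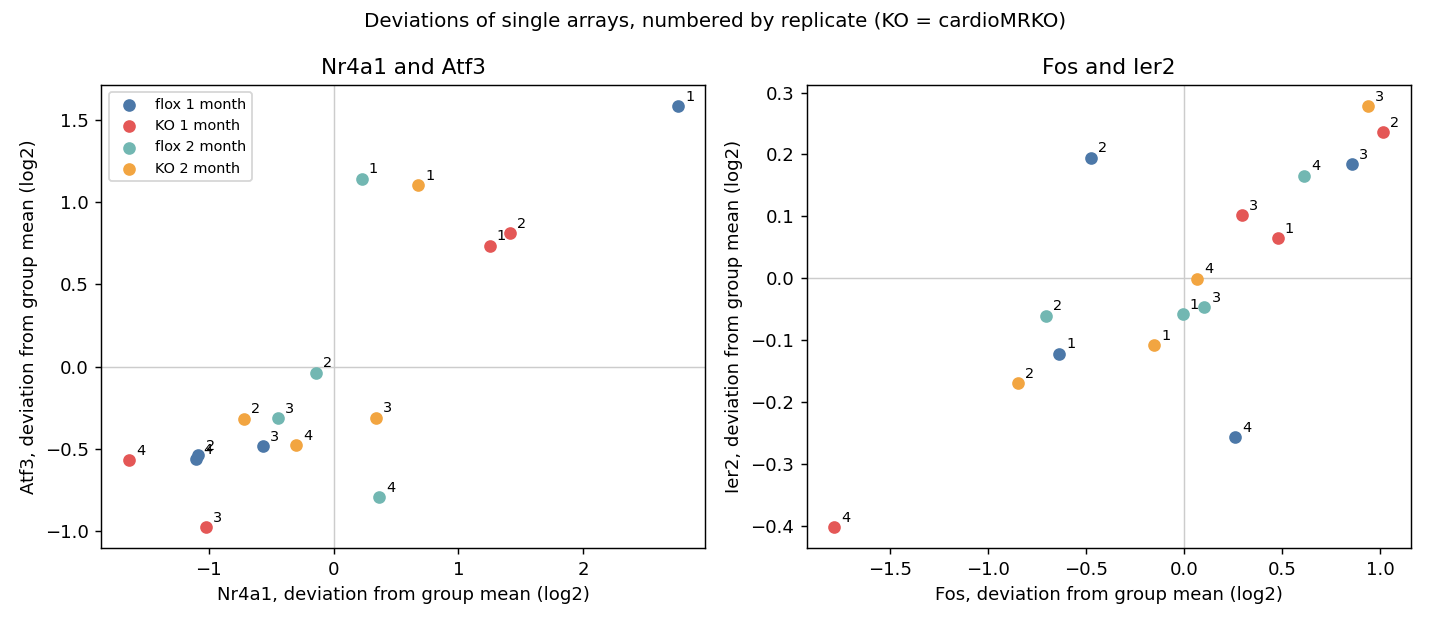
Deviation of each array from its group mean (log2) for Nr4a1 and Atf3 on the left and Fos and Ier2 on the right, with colours for groups and numbers for replicates. On the left, 5 arrays with Atf3 at 0.73 to 1.58 stand apart from the other 11, and on the right cardioMRKO replicate 4 at 1 month is lowest on both axes.

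Outside the 10 genes, the transcripts that followed Fos most closely over the 16 arrays, ranked by r among 14659 genes with a symbol, were Tbc1d8b (r = 0.86), Plk3 (0.82), Icmt (0.75), Gpalpp1 (0.75), Serpinb8 (0.74) and A2m (0.74). They are given as a description, with no test. Plk3, a polo-like kinase, is itself an immediate early gene. Gpalpp1 stood at −7.86 on cardioMRKO replicate 4 at 1 month and between −3.33 and −2.36 on all other arrays.

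Of 52 other immediate and delayed early genes 46 were tested. Between genotypes 0 of the 46 passed at 1 month and 0 at 2 months by limma, where 0.0947% and 3.57% of all genes did. At an unadjusted p under 0.05 there were 3 and 5 of the 46, against 5.92% and 18.9% of all genes. Their median differences were 0.11 at 1 month, with 34 of 46 above 0, and 0.02 at 2 months. With age, Arc, a gene of neuronal activity that is also induced by SRF, rose by 1.00 ± 0.15 (SE) in flox and 1.20 ± 0.15 in cardioMRKO (limma adjusted p = 0.000456 and 0.000344). At 1 month no array exceeded −1.74 in flox or −1.49 in cardioMRKO, and at 2 months none lay below −1.17 in flox or −0.66 in cardioMRKO, so the ages did not overlap. With a normexp background correction the flox difference of Arc was 0.67 (adjusted p = 0.00165). Plk2, a polo-like kinase, fell by 0.72 ± 0.19 in flox and 0.86 ± 0.19 in cardioMRKO (adjusted p = 0.0137 and 0.0110). Egr2, a relative of Egr1, passed in flox at 0.49 ± 0.15 (adjusted p = 0.0275), with means of −1.96 and −1.46 at 1 and 2 months. In cardioMRKO it did not pass, with similar means of −1.75 and −1.27. Dusp10, a MAP kinase phosphatase, passed in cardioMRKO at −0.48 ± 0.12 (adjusted p = 0.0202). In flox it did not pass, with means of −0.61 and −0.73. The call was lost in 8 of 27 alternatives for Egr2, among them each of flox replicates 1, 3 and 4 at 1 month and 1, 2 and 3 at 2 months left out, and in 4 of 27 for Dusp10. The change of the genotype difference between ages was called for neither. In all, 2 of the 46 rose in flox, where 16.7% of all genes did, and 1 fell, where 6% did. In cardioMRKO 1 rose and 2 fell, against 5.6% and 4.63% of all genes.

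Among 24 tested regulators upstream of these genes (SRF, CREB, MAP kinase and NF-κB routes), 0 passed between genotypes at either age (limma), with 2 and 5 at an unadjusted p under 0.05, against 5.92% and 18.9% of all genes. With age in flox, Mapk14 (p38α) at 0.30 ± 0.09 (SE) and Rps6ka1 (the kinase RSK1) at 0.56 ± 0.18 were higher, and Crem, a CREB relative, was lower at −0.52 ± 0.15 (limma adjusted p = 0.0243, 0.0382 and 0.0222). The call was lost in 9 of 27 alternatives for Mapk14, 10 for Rps6ka1 and 6 for Crem. As the mean of the probes of a gene, the value of Crem was −0.23 (adjusted p = 0.361) and that of Rps6ka1 turned to −0.0872. In cardioMRKO, Mef2a, a muscle transcription factor, fell by 0.41 ± 0.08 (limma adjusted p = 0.00782). In all, 2 of the 24 rose with age in flox and 1 fell, against 16.7% and 6% of all genes. In cardioMRKO 0 rose and 1 fell, against 5.6% and 4.63%. Of 15 tested targets of corticosteroid receptors, a list that includes Dusp1 and Nfkbia, 0 passed at 1 month between genotypes, with 3 unadjusted, against 5.92% of all genes. The cell cycle inhibitor Cdkn1a was higher in cardioMRKO at 2 months by 0.98 ± 0.24 (adjusted p = 0.0386), a call lost in 15 of 27 alternatives. With age in cardioMRKO, Pdk4, a kinase that restrains pyruvate oxidation, rose by 0.90 ± 0.21, and Lcn2, an iron-siderophore carrier, by 1.79 ± 0.43 (adjusted p = 0.0139 and 0.0176). The Lcn2 probe was above background on 1 of 4 cardioMRKO arrays at 1 month. Its difference was 0.32 with a normexp background correction (adjusted p = 0.402), and its call was lost in 5 of 26 alternatives. Of the 15 targets, 1 passed between genotypes at 2 months, against 3.57% of all genes. With age 0 of them rose and 1 fell in flox, against 16.7% and 6%. In cardioMRKO 2 rose and 0 fell, against 5.6% and 4.63%.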

How the data were processed

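Whole-heart RNA of 16 mice was measured on Agilent single-colour arrays. The deposited values are fluorescence intensities per spot on a linear scale. The processed intensity was background-subtracted by Agilent Feature Extraction 12.0.0.7 per the file headers, and version 9.5 is the one in the submitters' processing notes. The deposited series matrix holds the same intensity, with a maximum difference of 0.

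The log2 of the processed intensity minus the 75th percentile of its array was used. Spots marked as outliers were left out, spots of a probe were averaged, and of 41174 probes the 27278 that stood well above background throughout some group of 4 arrays entered the tests. Probes were joined to symbols through RefSeq accessions (28223 probes), and the probe of highest mean stood for a gene. A mean per group was fitted by lmFit and eBayes of limma 3.58.1, under R 4.3.3, and compared two-sided, with 12 residual degrees of freedom. The fit and the correlation were tested on simulated data. Correlations used 100000 permutations within groups. The limma p-values rest on the spread between arrays within groups, in which differences between hearts and between arrays are mixed. A difference between slides is not part of that spread, since no slide held arrays of different groups. The number of hearts limits the precision.

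The members and gene lists were chosen with earlier results of these data known. All 10 members were named, then up to 6 other early genes and up to 3 of each further list that passed, by smallest p, and the 6 genes most like Fos. Alternatives were a normexp background correction (on median signals, not on the mean signals that the design named), quantile normalization, other filters, the mean of probes, array weights, a replicate block, the 8 arrays compared alone and each array left out. Settings without arrays of low spike-in signal, of high airway signal or in slide position 1 were chosen after seeing the data.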

Additional observations from a re-analysis of the deposited data

Results flagged for a closer look

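Of 40 groups of 4 arrays (10 genes in 4 groups), 6 held an array whose gap to the nearest of the others exceeded Dixon's 95% critical value of 0.829 of the range of the group. Chance alone marks about 1 in 20 such groups. Nr4a1 stood at 5.61 on flox replicate 1 at 1 month, against 1.75 to 2.28 on the other 3 arrays. On the same array Atf3 stood at 0.28, against −1.86 to −1.78. Atf3 also stood apart on cardioMRKO replicate 1 at 2 months, at 0.74 against −0.84 to −0.68. Jun stood at 1.62 on cardioMRKO replicate 2 at 1 month, against 1.18 to 1.24. Ier2 stood at 1.71 on flox replicate 4 at 2 months, against 1.48 to 1.50. Dusp1 was low on flox replicate 2 at 1 month, at 2.35 against 2.75 to 2.82.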

How the results depend on the processing

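The counts of 0 immediate early genes called between genotypes held in 27 of 27 alternatives at each age, and that for the change between ages in 26 of 26. In flox with age the count of 2 was 1 to 2 with single arrays left out (1 without replicate 4 at either age). Without flox replicate 1 at 1 month it stayed 2, but Atf3 took the place of Nfkbia (limma adjusted p = 0.0489 and 0.0689). The count was 1 without slide position 1, without the arrays of highest airway signal and in the 8 arrays alone. It was 3 with a replicate block, where Atf3 joined (1.05, limma adjusted p = 0.0213), with array weights (Atf3) and with normexp (Junb lower). In cardioMRKO with age the count of 1 stayed 1 with single arrays left out, became 2 with array weights (Ier2 −0.42, adjusted p = 0.0378) and 0 without slide position 1. The count of 3 genes correlated with Fos ran from 0 to 4 with single arrays left out and was 2 with normexp. It was 1 without the arrays of low spike-in signal (Junb), without slide position 1 (Dusp1) and without the arrays of highest airway signal (Ier2). Directions turned for Nr4a1 at 1 month (−0.14 without the arrays of highest airway signal), for Fosb at 2 months (0.0053 without the arrays of low spike-in signal), for Jun at 2 months (−0.0405 to 0.38 with single arrays left out), for Atf3 at 2 months (−0.48 to 0.27, with 0.05 without cardioMRKO replicate 4) and for Rps6ka1 (−0.0872 as the mean of its probes). The cause was not tested. No label pairs arrays by replicate number, and same-numbered arrays correlated at −0.28 to 0.36, so the block was kept as an alternative. As a hint from the data, 8 of 16 arrays correlated best with their own number. With the replicate block the genotype counts and the cardioMRKO count of 1 were as without it. A slide block was not run, since slide and group cannot be told apart. Dim signal limits Fosb, and also Fos, whose processed intensities began at 47.0 units. The 4 arrays of a group limit Fos, Atf3 and Nr4a1, whose intervals hold both 0 and large differences.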

Other observations

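Several heat shock genes, which code for chaperones, were high on replicate 1 of both genotypes at 2 months, but not all 13 tested were. Hspa8 was lowest of its group there, at 4.88 in flox against 5.46 to 5.67, and at 6.11 in cardioMRKO against 6.16 to 6.57. Bag3 in flox stood at 4.86 on replicate 1, within the 4.84 to 5.02 of the other arrays. Hspa1a stood at 3.84 there in flox, against 0.21 to 0.57 on the other 3 arrays, and at 4.14 in cardioMRKO, against −0.03 to 0.90. Hspa1b stood at 0.75 in flox and 1.66 in cardioMRKO on these arrays, and between −2.79 and −1.58 on all others. Dnajb1 stood at 4.33 and 5.08 there, and Hsph1 at 4.17 and 4.30. Both arrays also had the highest Atf3 and Jun of their groups. Among 13 heat shock genes tested, Hspa8 passed between genotypes at 2 months (0.87 ± 0.21 SE, limma adjusted p = 0.0391) and fell with age in flox (−0.77 ± 0.21, adjusted p = 0.0174), and Hspb1 rose with age in flox (0.65 ± 0.21, adjusted p = 0.0393), calls lost in 13, 5 and 12 of 27 alternatives. Of the 13, 1 thus passed between genotypes at 2 months, against 3.57% of all genes. With age in flox 1 rose and 1 fell, against 16.7% and 6%, and 0 passed in cardioMRKO, against 10.2%. The replicate 1 arrays were singled out after their values were seen.

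The genes most like Nr4a1 over the 16 arrays, a list also made after its values were seen and given with no test, were Osgin1 (r = 0.94), Tmem100 (0.90), Gpt2 (0.89), Maco1 (0.89), Fgf7 (0.88) and Glt28d2 (0.88). Osgin1 stood at −0.45 on flox replicate 1 and at −0.48 on cardioMRKO replicates 1 and 2 at 1 month, against −1.39 to −1.11 on the other 5 arrays of that age. These are the 3 arrays on which Nr4a1 and Atf3 were high. Tmem100, a membrane protein of endothelium, stood at 1.41, 1.06 and 1.23 on them, against −0.21 to 0.48 on the other 5.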
